A study of Rattus norvegicus with 6 samples.

Results

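Genes typical of neutrophils were followed rat by rat in whole blood taken after an experimental stroke. The 10 genes were S100a8, S100a9, Lrg1, Csf3r, Mmp8, Mmp9, Lcn2, Slpi, Camp and Alox5ap, out of 14224 genes that the array annotation names by a single symbol at a probe set, and they were read at all 11 probe sets that carry 1 of these symbols. The genes were chosen by the measured values of these same rats, above all by S100a9 and Lrg1 and by the distance between MCAO rats 1 and 3. Their differences and their order are therefore given as a description, with no test.

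Blood RNA was hybridised to 6 rat expression arrays, 1 per animal. In the MCAO group (3 rats) the middle cerebral artery had been closed with a coated thread and then reopened, and in the sham group (3 rats) an uncoated thread had been used. All 6 animals were male Sprague-Dawley rats, 8 weeks old, operated under isoflurane, and blood was drawn from the heart 24 h after reperfusion. The MCAO rats had been picked by their infarct index from a larger number of operated rats, so they stand for brains with similar infarcts and not for all operated animals.

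Neutrophils are short-lived white blood cells that leave the marrow under the control of G-CSF and are among the first cells to reach injured tissue. They carry ready-made granules with antimicrobial proteins and proteases, most of whose transcripts are made in the marrow and decline before the cell enters the blood, while calprotectin, the S100A8 and S100A9 dimer, fills the cytosol of the mature cell. In whole blood, fewer cells of a type and less RNA per cell cannot be told apart.

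The promoters of S100a9 and Lrg1, the genes with the widest spread between rats, are shown first, beside that of Camp, whose values hardly moved. S100a8 and S100a9 are direct neighbours in the rat genome, with 0 genes between them. Of the 10 genes, 6 had a promoter entry in RefSeq (rat build GRCr8), namely S100a9, Lrg1, Csf3r, Mmp8, Camp and Lcn2. Each printed window runs from base -220 to base -11 counted from the start of transcription, is read on the minus strand in the 5′ to 3′ direction, and lies at chr2:178490633-178490842 (S100a9), chr9:1036942-1037151 (Lrg1) and chr8:118722009-118722218 (Camp). Capitals mark matches to TTNNGNAA, the core bound by C/EBP factors, to AGGAAGT, an ETS factor site, and to TATAAA, the TATA box.
S100a9: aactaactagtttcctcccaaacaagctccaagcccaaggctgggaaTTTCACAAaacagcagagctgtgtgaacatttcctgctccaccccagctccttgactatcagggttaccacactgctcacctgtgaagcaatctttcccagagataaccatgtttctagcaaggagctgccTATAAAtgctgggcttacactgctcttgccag
Lrg1: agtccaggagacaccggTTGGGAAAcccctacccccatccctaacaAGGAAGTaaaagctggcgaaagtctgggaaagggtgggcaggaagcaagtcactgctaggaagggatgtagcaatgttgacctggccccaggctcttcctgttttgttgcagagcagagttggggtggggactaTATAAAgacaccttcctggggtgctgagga
Camp: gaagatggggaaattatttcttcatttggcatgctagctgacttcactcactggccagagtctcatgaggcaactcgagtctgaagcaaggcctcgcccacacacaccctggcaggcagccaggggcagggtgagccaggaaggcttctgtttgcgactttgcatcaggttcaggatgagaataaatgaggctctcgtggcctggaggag

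Matches were searched on both strands in the 250 bases before each start, and no match overlapped another in the 6 promoters. A match is a description of the letters, not of binding. S100a9 held the C/EBP core at -173 to -166 and a TATA box at -42 to -37. Lrg1 held the core at -203 to -196, the ETS letters at -174 to -168 and a TATA box at -40 to -35. The core was found in 5 of the 6 promoters, all but Camp, and in 37.2% of all 33469 rat promoters. Among the 5 was Lcn2, with the core at -191 to -184, which hardly varied, as did Camp (ranges 1.77e-06 and 7.28e-06). S100a8, Slpi, Mmp9 and Alox5ap had no promoter entry. Whether the core had a part in the spread between rats was not tested. TATAAA was found in S100a9, Lrg1 and Mmp8, and in 12.9% of all promoters. AGGAAGT was found in Lrg1 and Mmp8, and in 7.08% of all promoters. The STAT letters TTCNNNGAA were found only in Mmp8 among the 6, at -149 to -141, and in 7.67% of all promoters.

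The values are log2 expression after DFW (Distribution Free Weighted) summarisation, which shrinks differences between arrays strongly. The median range of a probe set over the 6 rats was 6.55e-06, and 168 of 31042 probe sets ranged over more than 0.01. Differences on this scale are not fold changes of raw intensity, and precision is limited by how few arrays there are. Array medians lay between 5.56433 and 5.5644. The smallest, 5.56433, was that of MCAO rat 1, and the other MCAO rats had 5.56438 and 5.56439, against 5.56439 to 5.5644 in sham rats. In average level the 10 genes spread widely, with S100a9 at percentile 99.1 of all probe sets, S100a8 at 98.4, Lrg1 at 95.1, Slpi at 93.5, Csf3r at 91.3, Alox5ap at 76.3, Mmp8 at 64.4, Camp at 56.2, Mmp9 at 47.5 and 24.3 for its 2 probe sets, and Lcn2 at 25.2.

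S100a9 had the widest range of the 10 genes. S100a9, which together with S100a8 binds calcium, zinc and manganese and acts as an alarm signal outside the cell, had 9.0246, 9.0617 and 9.1236 in MCAO rats 1, 2 and 3, against 9.0658, 9.0783 and 9.0577 in sham rats 1, 2 and 3. MCAO rat 1 was the lowest and MCAO rat 3 the highest of all rats, MCAO rat 2 lay among the sham rats, and the groups overlapped. The means were 9.070 ± 0.0501 in MCAO and 9.0673 ± 0.0104 in sham (SD, n = 3 each), so the spread was 4.84 times as large in MCAO while the means differed by 0.00271 (SE 0.0278). S100a8, its partner, had 7.9749, 8.0049 and 8.0458 in MCAO rats 1 to 3, against 8.0071, 8.0172 and 8.0022 in sham rats 1 to 3. The 6 rats fell in the same order as for S100a9, from MCAO rat 1 through sham rat 3, MCAO rat 2, sham rat 1 and sham rat 2 to MCAO rat 3. The S100a8 means were 8.0086 ± 0.0356 in MCAO and 8.0089 ± 0.0076 in sham, a difference of -0.00029 (SE 0.0198). For S100a9, MCAO rat 1 minus the lowest sham rat was -0.0332, and MCAO rat 3 minus the highest sham rat was 0.0454.

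Lrg1 and Csf3r spread in the same way. Lrg1, a leucine-rich glycoprotein that human neutrophils store in granules and that modulates TGF-beta signalling in endothelium, had 6.7084, 6.7325 and 6.7884 in MCAO rats 1 to 3, against 6.7381, 6.7424 and 6.7337 in sham rats 1 to 3. MCAO rats 1 and 2 lay below every sham rat and MCAO rat 3 above them. The means were 6.7431 ± 0.0411 in MCAO and 6.7381 ± 0.0044 in sham, a difference of 0.00504 (SE 0.0224). Csf3r, the receptor for G-CSF, had 6.3596, 6.3769 and 6.4259 in MCAO rats 1 to 3, against 6.3763, 6.3731 and 6.3737 in sham rats 1 to 3. Here MCAO rat 1 lay below every sham rat, while MCAO rat 2 was 1 of the 2 MCAO rats above all of them. The Csf3r means were 6.3875 ± 0.0343 in MCAO and 6.3744 ± 0.0017 in sham, and the difference of 0.0131 (SE 0.0187) was smaller than its error. The SD in MCAO was 9.43 times that in sham for Lrg1 and 20.3 times for Csf3r.

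Slpi and Alox5ap moved over a narrower range. Slpi, a secreted inhibitor of neutrophil elastase, had 6.5484, 6.5481 and 6.5600 in MCAO rats 1 to 3, against 6.5482, 6.5509 and 6.5481 in sham rats 1 to 3. MCAO rat 3 stood alone at the top and the other 5 rats lay close together, with MCAO rat 2 the lowest. Alox5ap, the membrane protein FLAP that presents arachidonic acid to 5-lipoxygenase for leukotriene synthesis, had 5.8895, 5.8924 and 5.8969 in MCAO rats 1 to 3, against 5.8915, 5.8924 and 5.8911 in sham rats 1 to 3. Its ends were again MCAO rat 1 and MCAO rat 3, and MCAO rat 2 lay just above the highest sham rat. The mean differences were 0.00309 (SE 0.00376) for Slpi and 0.00129 (SE 0.00205) for Alox5ap.

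**Figure D1:**
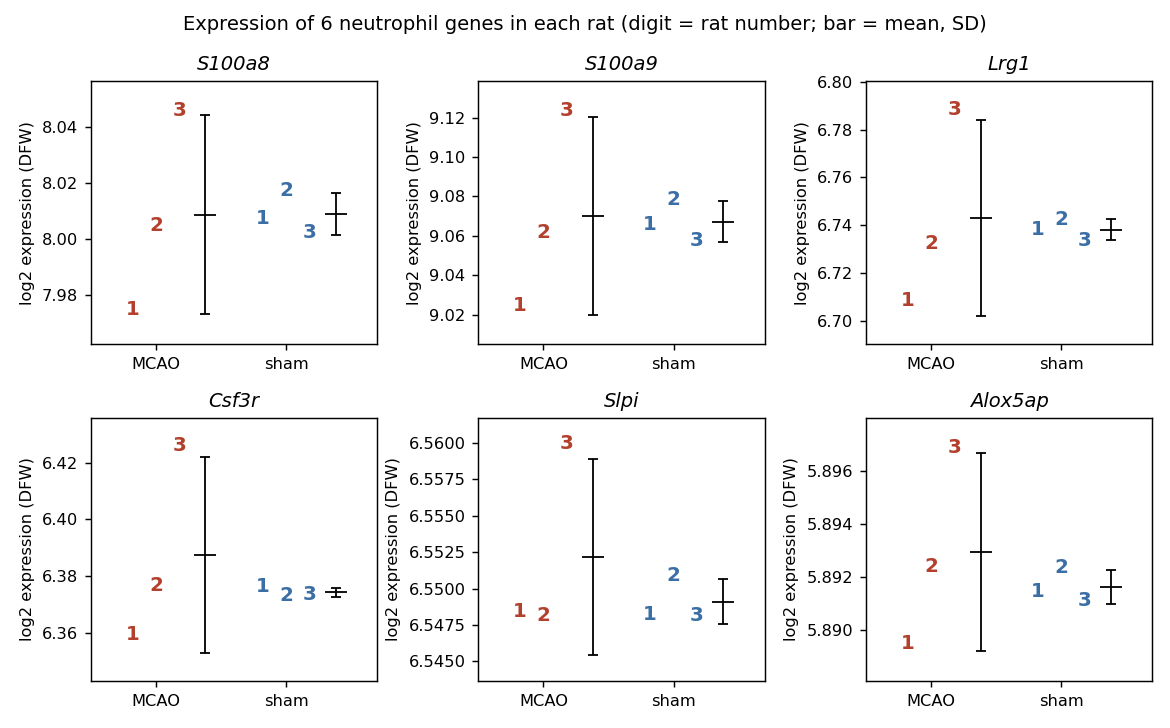
Log2 expression (DFW, vertical axis, a separate scale for each gene) of S100a8, S100a9, Lrg1, Csf3r, Slpi and Alox5ap in MCAO rats (left) and sham rats (right), with each rat's number as its point and bars for mean and SD (n = 3 each). MCAO rat 3 is the highest rat in all 6 panels and MCAO rat 1 the lowest in 5, while the sham rats lie close together.

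The other 4 genes, Mmp8, Mmp9, Camp and Lcn2, hardly varied on this scale, and their mean levels lay at percentile 64.4 or lower. Other granule genes went both ways. Of the 17 measured genes of the neutrophil granule list given below, 5 were among the 1000 probe sets with the widest range and the others were not. The widest of them, Lyz2, ranged over 0.0717. Mmp8, neutrophil collagenase, had 5.715201, 5.715231 and 5.715322 in MCAO rats 1 to 3, against 5.715164, 5.715227 and 5.715187 in sham rats 1 to 3. MCAO rat 3 was again at the top, but sham rat 1 was the lowest. Mmp9, the gelatinase of the tertiary granules, ranged over 5.84e-05 at its brighter probe set, between sham rat 3 and MCAO rat 3, and over 3.63e-06 at its dimmer probe set, between MCAO rat 1 and MCAO rat 3. Camp, the precursor of the rat cathelicidin peptide, ranged over 7.28e-06, between sham rat 2 and MCAO rat 3. Lcn2, lipocalin 2 of the specific granules, which binds bacterial iron carriers, ranged over 1.77e-06, between sham rat 1 and sham rat 2, and was the 1 probe set of the 11 whose SD was smaller in MCAO. At Camp, Lcn2 and the dimmer probe set of Mmp9 the range was close to or under that of the median probe set, so the order of the rats there is given without weight.

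Over the 11 probe sets, MCAO rat 3 was the highest rat at 10 and MCAO rat 1 the lowest at 6, and both held at 6, namely S100a8, S100a9, Lrg1, Csf3r, Alox5ap and the dimmer probe set of Mmp9. Both held at 6.16% of all probe sets. This order was part of the choice, so nothing is read from the comparison. Probe sets that vary more also showed it more often. Among the 1000 probe sets with the widest range, of which 6 belong to the 10 genes, 27.4% had both ends, and 0.6% had the reverse order, with MCAO rat 3 lowest and MCAO rat 1 highest. In those 1000, MCAO rat 1 was the lowest rat at 58.6% and MCAO rat 3 the highest at 35.9%, while sham rat 3 was the highest at 37.5%. The range of S100a9 was the 13th widest of 31042, that of Lrg1 the 16th, S100a8 the 23rd and Csf3r the 25th, followed by Slpi at 137 and Alox5ap at 221. The median difference between MCAO rat 3 and MCAO rat 1 was 0.0074 over the 11 probe sets, 0.0015 over the 1000 widest and -4.27e-07 over all. The SD was larger in MCAO at 10 of the 11, against 70.1% of the 1000 widest and 56.8% of all.

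**Figure D2:**
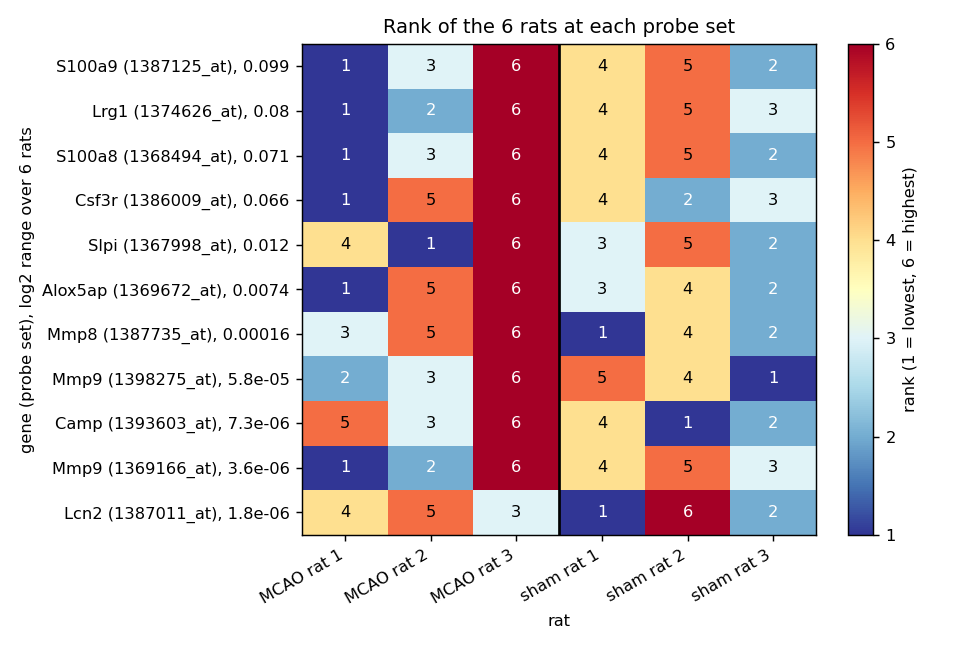
Rank of each rat (1 lowest, 6 highest; columns, MCAO rats left of the line and sham rats right) at the 11 probe sets (rows, sorted by their log2 range, which follows the name). MCAO rat 3 has rank 6 at 10 probe sets and MCAO rat 1 has rank 1 at 6, whereas MCAO rat 2 takes ranks from 1 to 5.

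In the deposited values MCAO and sham overlapped at all 11 probe sets. All MCAO rats lay above all sham rats at 0 of the 11 probe sets, against 4.82% of all probe sets, and below them at 0, against 3.6%. With shares this low, a count of 0 among 11 is unremarkable, so nothing is read from it. Centring each array on its median, which shifted MCAO rat 1 by 4.87e-05, left 4 of the 11 above every sham rat (Mmp8, Camp, Lcn2 and the dimmer probe set of Mmp9), against 26.3% of all probe sets under the same centring. The mean was higher in MCAO at 8 of the 11, with a median difference of 5.85e-05, beside 6.72e-08 over all probe sets and -0.000563 over the 1000 widest. limma called 0 of the 11 and 0.0% of all probe sets at an adjusted p under 0.05. At an unadjusted p under 0.05 it gave 0 of the 11 and 1150 of all. Rank Products, which multiplies the ranks of a probe set over the 9 MCAO minus sham comparisons of single rats, called 1 of the 11 higher in MCAO (Csf3r) and 2 lower (S100a9 and Lrg1) at an FDR under 0.05. It called 0.126% of all probe sets higher and 0.58% lower, and since the genes were chosen on this contrast nothing is read from the counts. The 3 calls became 1 (Lrg1) with quantile normalization, and 0 in the brighter probe sets alone, without MCAO rat 2 or without sham rat 2.

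For S100a9 and Lrg1 the direction of the call differed from that of the mean. Both were called lower although their MCAO means were higher, by 0.00271 and 0.00504, whereas Csf3r was called higher and had the higher mean in MCAO. For S100a9, 5 of the 9 differences between an MCAO and a sham rat were negative and 4 positive, and for Lrg1 6 were negative and 3 positive. For Csf3r, 3 were negative and 6 positive. S100a8, with 5 negative and 4 positive, had an FDR of 0.061 for lower and was not called. The 9 differences share 6 rats. The FDR comes from permuting probe sets within arrays, so it takes no account of how far a probe set varies between rats. A probe set with a wide range can therefore be called with few more differences of 1 sign than of the other. The median rat also lay lower in MCAO than in sham for S100a9 (9.0617 in MCAO and 9.0658 in sham) and for Lrg1 (6.7325 in MCAO and 6.7381 in sham), and higher for Csf3r (6.3769 in MCAO and 6.3737 in sham). Leaving out MCAO rat 3 turned the mean difference to -0.0241 for S100a9, -0.0176 for Lrg1 and -0.00607 for Csf3r, and leaving out sham rat 3 turned that of S100a9 to -0.00206. Without MCAO rat 1 the mean differences were 0.0254 for S100a9, 0.0224 for Lrg1 and 0.0271 for Csf3r.

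The 10 genes varied together to very different degrees. Over the 6 rats, the 45 pairs of genes had a median Pearson r of 0.746 and a median Spearman rho of 0.486. These points share the arrays, their joint normalization and the same blood samples, so r is a description with no test. The 6 genes with the widest ranges had r from 0.836 to 0.997 among themselves (median 0.956, 15 pairs), and the other 30 pairs a median of 0.629. S100a8 and S100a9 had r = 0.997 and rho = 1.0. S100a9 and Lrg1 had r = 0.990, and Lrg1 and Csf3r had r = 0.969 with a rho of 0.486. Lcn2 had r between -0.153 and 0.428 with every other gene.

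How far r rested on MCAO rats 1 and 3 differed between pairs. These were the 2 rats farthest from the median of S100a9. Over the other 4 rats the median r of the 45 pairs was 0.361, and that of the 15 pairs of the widest genes 0.576. S100a8 and S100a9 kept r = 0.997, S100a9 and Lrg1 had 0.934, and S100a9 and Slpi had 0.938. Csf3r turned to -0.410 with S100a9, -0.517 with Lrg1 and -0.661 with Slpi, so its relation to these genes rested on MCAO rats 1 and 3. With the group means taken off, the median was 0.769 over all pairs and 0.970 over the widest genes.

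**Figure D3:**
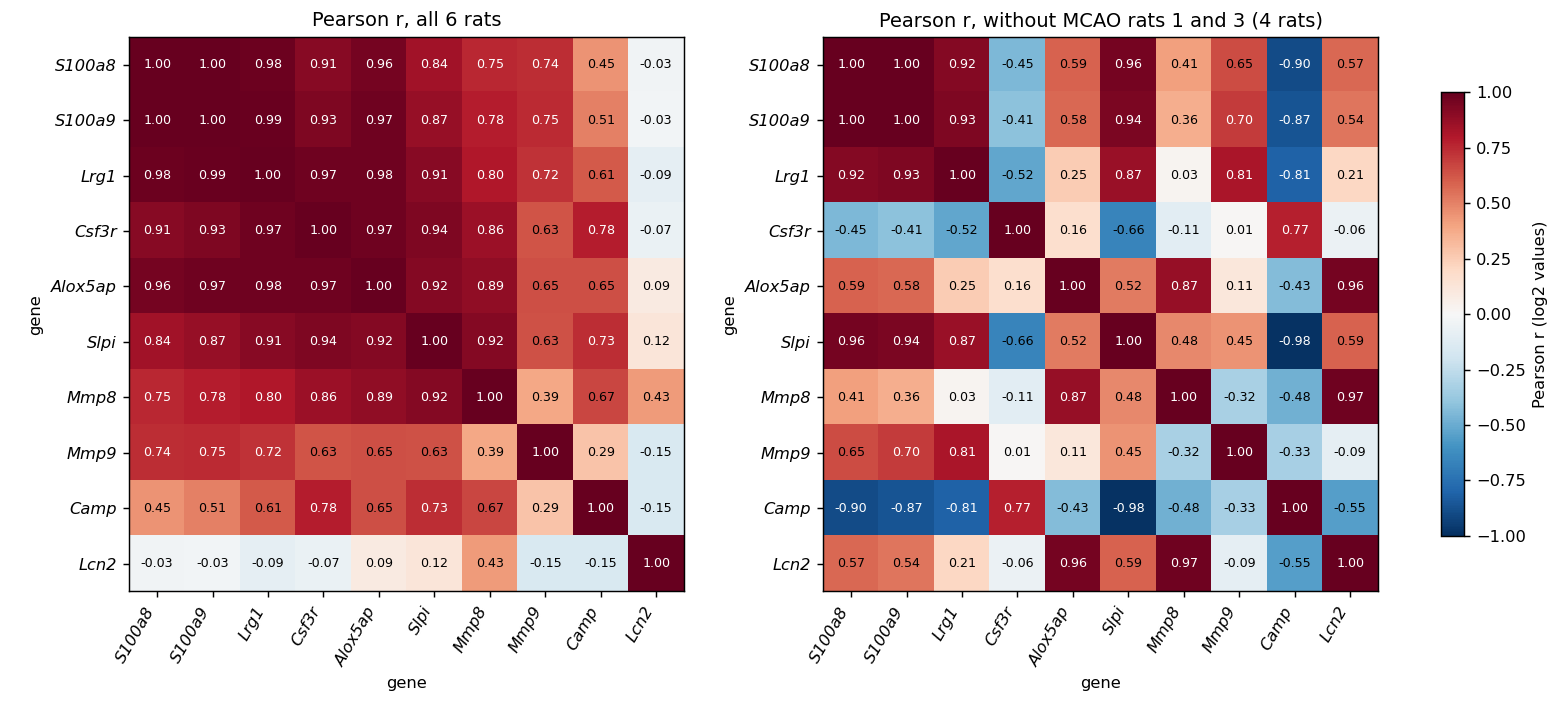
Pearson r of log2 values between the 10 genes, over all 6 rats (left) and without MCAO rats 1 and 3 (right, 4 rats), with colour from -1 (blue) to 1 (red). S100a8, S100a9 and Lrg1 stay above 0.9 in both panels, whereas Csf3r changes sign against them and Lcn2 lies near 0 against most genes on the left.

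Other genes followed S100a9 and Lrg1 closely. Among 789 probe sets with 1 symbol in the 1000 widest, other than those of the 10 genes, 54 had r over 0.95 with S100a9 and 43 with Lrg1. The nearest to S100a9 were Serpinb1a, an inhibitor of neutrophil serine proteases (r = 0.9989), Cdc42ep3 (0.9954), Nudt4 (0.9943), Fbxl5 (0.9941) and Vsir, an inhibitory immune receptor also called VISTA (0.9939). The nearest to Lrg1 were Ctsh, a lysosomal protease (r = 0.9937), Nudt4 (0.9912), Fbxl5 (0.991), Cd302 (0.9904) and Vsir (0.9902). Without MCAO rats 1 and 3, r lay between 0.8637 and 0.98 for the genes nearest to S100a9. For those nearest to Lrg1 it lay between 0.6768 and 0.7779. Serpinb1a had 6.66722, 6.66892 and 6.67198 in MCAO rats 1 to 3, against 6.66918, 6.66988 and 6.66893 in sham rats 1 to 3. It thus had the same lowest and highest rats as S100a9 on a narrower range of 0.00476.

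The wider neutrophil genes were taken from lists by role, which leave out the 10 genes. Of 17 measured genes of the neutrophil granule list, Rank Products called 0 in either direction, MCAO rat 1 was the lowest at 7 and MCAO rat 3 the highest at 8. Those that varied most were Lyz2, lysozyme, Anxa1, the pro-resolving annexin A1, and Chi3l1, a chitinase-like protein of the specific granules in human neutrophils. Lyz2 had 10.4107, 10.4453 and 10.4825 in MCAO rats 1 to 3, against 10.4333, 10.4654 and 10.4389 in sham rats 1 to 3. Its ends were the same rats as those of S100a9, and its r with S100a9 was 0.95. Anxa1 (range 0.0283) and Chi3l1 (range 0.0267) also ran from MCAO rat 1 to MCAO rat 3. Over the whole granule list, however, MCAO rat 3 was above MCAO rat 1 at only 9 of the 17 genes, with a median difference of 9.05e-07. Of 17 measured neutrophil surface genes, 1 was called higher and 0 lower, MCAO rat 1 was the lowest at 8 and MCAO rat 3 the highest at 10. The called gene was Il1r2, the decoy receptor for interleukin 1, with 5.74275, 5.74301 and 5.74352 in MCAO rats 1 to 3, against 5.74255, 5.74271 and 5.74257 in sham rats 1 to 3. Il1r2 was named after its values were seen, and it did not overlap between MCAO and sham. All MCAO rats lay above all sham rats at this 1 of the 17 surface genes, against 4.82% of all probe sets, so nothing is read from it. C5ar1, the receptor for complement C5a (range 0.00991), Pilra, an inhibitory receptor of myeloid cells (range 0.0104), and Fcgr2b, an inhibitory Fc receptor (range 0.00207), ran from MCAO rat 1 to MCAO rat 3. Over the whole surface list, MCAO rat 3 was above MCAO rat 1 at 12 of the 17 genes, with a median difference of 0.00015. Cxcr2, a defining chemokine receptor of neutrophils, had 5.56473, 5.56475 and 5.56488 in MCAO rats 1 to 3, against 5.56473 in each sham rat. Mpo, Elane, Ltf, Fpr1 and Cd177 had no probe set annotated with that symbol alone, so they were not analysed here. The granule list held 33 genes and the surface list 26, of which 17 each were measured.

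Partners of the 10 genes in their pathways were read in the same way. Of 15 measured genes of the S100 family and its receptors, 0 were called higher and 2 lower, namely S100a4 and the scavenger receptor Cd36, both with sham rat 3 as the highest rat and with ranges of 0.00864 and 0.0237. S100a11 ran from 6.64712 in MCAO rat 1 to 6.6603 in MCAO rat 3 and had r = 0.961 with S100a9. Of 17 measured genes around G-CSF receptor signalling, 0 were called in either direction, MCAO rat 1 was the lowest at 6 and MCAO rat 3 the highest at 9. Among them the kinase Jak1 (range 0.00701), the transcription factor Cebpb (range 0.00581) and the phosphatase Ptpn11 (range 0.00129) varied most, all less than Csf3r itself. Of 16 measured genes of leukotriene synthesis and its receptors, 0 were called, and Lta4h, the enzyme that makes leukotriene B4, ran from MCAO rat 1 to MCAO rat 3 over 0.00131, while Alox12 (range 0.0034) and Alox15 (range 0.000426) peaked in sham rat 3. Of 18 measured matrix metalloproteinases and inhibitors, 0 were called, and the widest ranges were those of Timp3 (0.000104), Adam8 (6.67e-05) and Timp2 (6.28e-05). Of 13 measured genes of Lrg1 and TGF-beta receptor signalling, 0 were called, and Tgfbr1 (range 0.000404), Smad4 (9.1e-05) and Eng (2.86e-05) varied most.

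Markers of other blood cells are given beside these values because a whole-blood sample holds all of them. MCAO rat 1 was also the lowest rat at 7 of 10 B cell, 11 of 16 T cell, 9 of 12 NK cell and 6 of 12 monocyte genes, against 19.5% of all probe sets. Among the 1000 widest probe sets the share was 58.6%. Of these genes, 4 B cell, 5 T cell, 5 NK cell and 4 monocyte genes were among the 1000 widest. MCAO rat 1 was the lowest rat at all of these wide genes, but at only 1 of 7 wide erythroid and 1 of 4 wide platelet genes. MCAO rat 3 was the highest at 0 of the 10 B cell, 0 of the 16 T cell, 3 of the 12 NK cell, 6 of the 12 monocyte and 13 of the 14 platelet genes, against 15.5% of all probe sets and 35.9% of the 1000 widest. The mean level of the B cell genes was 6.37483, 6.37608 and 6.3762 in MCAO rats 1 to 3, against 6.37624, 6.37701 and 6.37732 in sham rats 1 to 3, and 3 were called lower (Ms4a1, Fcmr and Cr2). That of the T cell genes was 6.29923, 6.3009 and 6.30061 in MCAO rats 1 to 3, against 6.30047, 6.3016 and 6.30141 in sham rats 1 to 3, and 2 were called lower (Cd3g and Tcf7), with Lck next in range at 0.00668. In both lists MCAO rat 1 was the lowest rat, as for S100a9, but MCAO rat 3 was not the highest.

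The NK cell genes averaged 6.04652, 6.04836 and 6.05116 in MCAO rats 1 to 3, against 6.04907, 6.05148 and 6.04934 in sham rats 1 to 3, and 2 were called lower (Prf1 and Ccl5). Gzmk, a granzyme, was not called and ran from MCAO rat 1 to MCAO rat 3 over 0.00522, with r = 0.902 with S100a9. The monocyte genes averaged 5.92926, 5.92963 and 5.93099 in MCAO rats 1 to 3, against 5.92951, 5.93063 and 5.92991 in sham rats 1 to 3, with 0 called. This mean had the same end rats as S100a9, but single genes did so at 2 of 12. Of the widest, Mpeg1 (range 0.0109) ran from MCAO rat 1 to MCAO rat 3, while Csf1r (0.00493) and Klf4 (0.00312) were highest in sham rat 2. The platelet genes averaged 8.07103, 8.07089 and 8.07175 in MCAO rats 1 to 3, against 8.07091, 8.07115 and 8.07135 in sham rats 1 to 3, with 0 called and F13a1, Nrgn and Treml1 as the widest. The erythroid genes averaged 9.80115, 9.8012 and 9.79805 in MCAO rats 1 to 3, against 9.80099, 9.79857 and 9.80002 in sham rats 1 to 3. Among them Hba-a3, an alpha globin, was called higher and had 12.1249, 12.1237 and 12.0853 in MCAO rats 1 to 3, against 12.1244, 12.0782 and 12.0865 in sham rats 1 to 3. MCAO rat 1 was its highest rat, the opposite of S100a9 (r = -0.600). Tfrc, the transferrin receptor, was called lower and was lowest in MCAO rat 3. Klf1, an erythroid transcription factor, was not called and ran from 8.61983 in MCAO rat 1 to 8.62355 in MCAO rat 3, with r = 0.715. MCAO rat 3 was above MCAO rat 1 at 8 of the 14 erythroid genes, with a median difference of 1.2e-06, against -0.0395 for Hba-a3. The part that the make-up of the blood, red cell RNA or the array itself had in the distance between MCAO rats 1 and 3 was not tested.

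**Figure D4:**
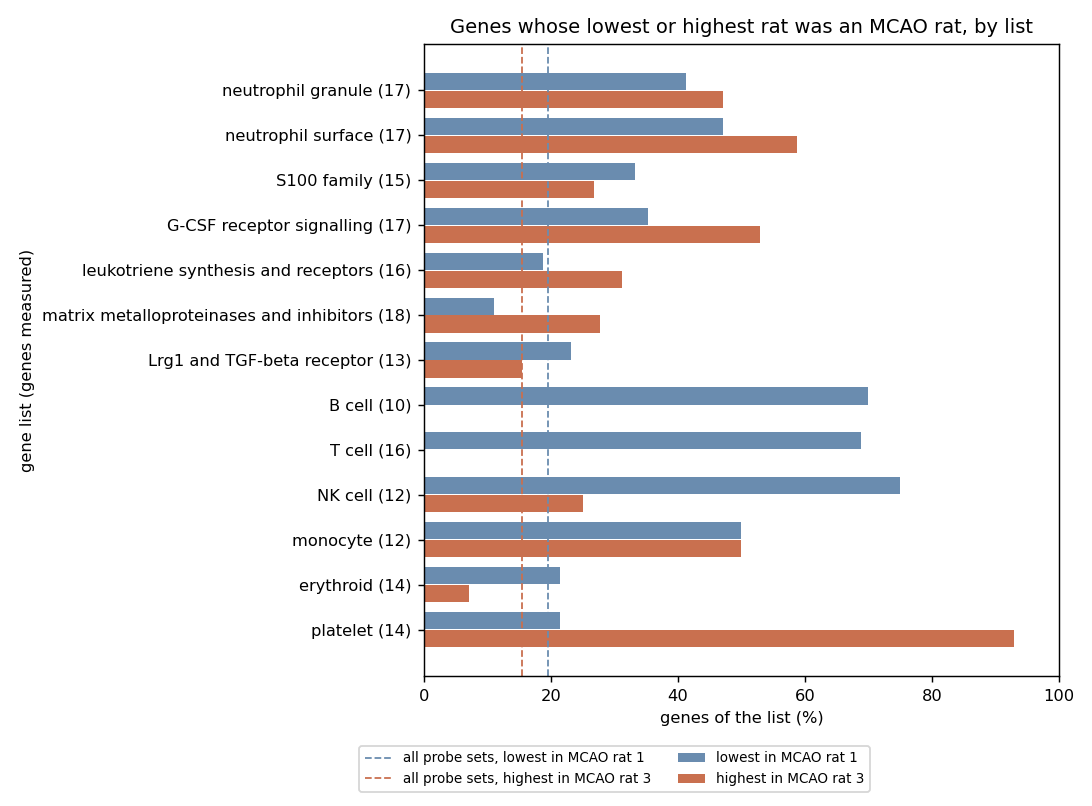
Share of the measured genes of each list (horizontal axis, percent; number measured after the name) whose lowest rat was MCAO rat 1 (blue) or whose highest rat was MCAO rat 3 (orange), with dashed lines for all probe sets (19.5% and 15.5%). The 2 shares are 47.1% and 58.8% for the neutrophil surface genes and 41.2% and 47.1% for the neutrophil granule genes. The monocyte genes are like them, with 50.0% for each. The B and T cell genes have only the first, and the platelet genes mainly the second, at 92.9%. Among the 1000 probe sets with the widest range, not drawn, the shares were 58.6% and 35.9%.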

How the data were processed

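Whole-blood RNA of 3 MCAO and 3 sham rats was measured on 6 GeneChip rat genome arrays. The authors had run DFW in R on the 6 arrays jointly and deposited a log2 value per probe set and rat. No log base is stated, and log2 was taken from the range of the values. They hold no background estimate. Of 31099 probe sets, 57 controls were left out.

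Rank Products, implemented in Python 3.11.15 (numpy 2.4.6, pandas 2.3.3), used all 9 MCAO minus sham differences, 100 permutations within arrays and an FDR threshold of 0.05. It was run on simulated data with independent noise at each probe set, which do not cover variation shared between genes. Differences and standard errors came from limma 3.58.1 in R 4.3.3, with Benjamini-Hochberg adjustment over all probe sets. Symbols came from the array annotation (20837 probe sets with 1 symbol, 425 with several, 9780 with none), and the 10 genes matched the reference by gene ID. In correlations and lists a gene was represented by its probe set with the highest mean.

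The 10 genes, the 13 lists and the rules were chosen with earlier results of these data known. Named were the 10 genes, the 3 widest other genes of each list, the 5 nearest genes to S100a9 and to Lrg1 and, chosen after their values were seen, Il1r2 and Cxcr2. Alternatives were limma, quantile normalization, median centring, the brighter probe sets, an FDR of 0.01, controls kept, a replicate block, other correlations or probe sets, and leaving out each rat. Raw images, scan dates, cell counts and miRNA arrays were not used here.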

Additional observations from a re-analysis of the deposited data

How the results depend on the processing

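The count of the 11 probe sets called by Rank Products, 3, became 1 with quantile normalization, 0 in the brighter probe sets alone, 0 at an FDR of 0.01 and 0 with limma, and lay between 0 and 3 when 1 rat was left out. It fell to 0 without MCAO rat 2 and without sham rat 2. It was 1 without MCAO rat 1, sham rat 1 or sham rat 3 (Csf3r each time). Without MCAO rat 3 it was 3, all lower (S100a8, S100a9 and Lrg1). With a replicate block (same-numbered pairs, 1 higher and 3 lower) it was 4. Deviations of same-numbered rats from their group means had r of -0.419, -0.851 and -0.899, or 0.215, 0.0399 and 0.0631 with each probe set at unit SD. Rats with different numbers had r from -0.833 to 0.931, or from -0.238 to 0.174 at unit SD. On neither scale did every same-numbered pair exceed 0.1. The labels give such rats only a number in common, and whether they shared a day or a batch was not tested. Of all list genes 12 were called, against 6 with quantile normalization, 6 in the brighter probe sets, 2 at an FDR of 0.01, 0 with limma, 17 with the replicate block and 3 to 23 with 1 rat left out. The highest count came without MCAO rat 3 and the lowest without sham rat 2 or 3, with 7 without sham rat 1. All calls numbered 219, 123 with quantile normalization, 113 in the brighter probe sets, 83 at an FDR of 0.01, 352 with the block and 69 to 366 with 1 rat left out.

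Groups did not overlap at 0 of the 11 probe sets, at 4 after median centring (26.8% of all probe sets, against 8.41% without it) and at 0 to 3 with 1 rat left out (14.9% to 23.7% of all). The median difference lay between -0.000691 and 0.00301 with 1 rat left out. Leaving out 1 rat gave differences between -0.0241 and 0.0254 for S100a9, -0.0176 and 0.0224 for Lrg1 and -0.00607 and 0.0271 for Csf3r, negative without MCAO rat 3, and for S100a9 also -0.00206 without sham rat 3. The median correlation of 0.746 was 0.497 after centring, 0.486 with Spearman and 0.361 without MCAO rats 1 and 3 (added after seeing the data), and lay between 0.384 (without MCAO rat 3) and 0.856 with 1 rat left out. S100a8, S100a9, Lrg1, Csf3r and Alox5ap kept MCAO rat 1 lowest and MCAO rat 3 highest under quantile normalization and centring. The cause of these changes was not tested, apart from the smaller number of rats or genes that some settings imply. With 3 rats per group, a p that misses the threshold does not show equal levels.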
